A study of Homo sapiens with 6 samples.

Results

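Late and early exposure to recombinant HMGA1 were compared directly in A375, a melanoma cell line of human origin. The assay was ATAC-seq, which reads open chromatin from the places where the Tn5 transposase can insert adapters. Cells treated for 18 h (2 libraries) were set against cells treated for 2 h (2 libraries). A group of 2 libraries labelled mock served as the reference for both times. The comparison covered 226626 of the 226920 regions found in any of the 3 deposited tables, with 1 entry kept per region and the sign as deposited, so that a negative log2 fold change means less signal at 18 h than at 2 h. Of these regions, 108134 had a mean signal of at least 41.7, the level below which the authors set every adjusted p to 1, and are called tested here. The libraries were described as biological replicates, and whether each had its own culture is not stated. The p-values therefore measure only the spread between these libraries, which may be technical. The labels do not give the time at which the mock cells were collected, so a longer exposure and a longer time in culture cannot be told apart. They also do not give the dose of the protein. The deposited tables hold no values of single libraries, so each value below is a fold change with its standard error (SE) or a mean over the 6 libraries, and the depth of a library is unknown.

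HMGA1 is an architectural chromatin protein: through its AT hooks it holds the minor groove of A+T-rich stretches, it bends DNA, and it helps transcription factors to assemble on enhancers. It is abundant in embryonic and tumour cells and scarce in most adult tissues. Open regions fall into promoters, which lie at gene starts and are open in most cell types, and distal elements such as enhancers, whose openness differs more between cell types and states. An ATAC-seq signal from bulk cells averages over the population, so a smaller share of cells with a region open and less opening in each cell cannot be told apart.

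Promoter sequences are shown for genes, among those of smallest p near a start, whose called region covered the start and at least 250 of the 300 bases from 250 before to 50 after it. They show the DNA of starts that differed between 18 h and 2 h. They were taken from RefSeq (GRCh38.p14). Whether a region covered the start was read from its deposited distance. KCND1, higher at 18 h, is not printed because its region lay 204 bases from the start by that distance. Among 35116 promoters of that length, 7.71% held an AP-1 motif (TGANTCA), 14.03% a TEAD motif (GGAATG), 11.5% a TATA box (TATAAA) and 45.0% a GC box (GGGCGG), each searched on both strands; overlaps between motifs were allowed. Each is printed 5′ to 3′ on its gene's strand, with motif matches in capitals. Lower at 18 h were FAM186A (chr12:50396560-50396859, minus strand), DDAH1 (chr1:85578151-85578450, minus strand) and ANKRD1 (chr10:90921038-90921337, minus strand). They are followed by CPA4 (chr7:130292911-130293210, plus strand), which was chosen after its values were seen because it holds AP-1 and TATA box motifs. CPA4 has 2 AP-1 motifs, and its 2 TATA box matches overlap in 1 stretch, 1 match on each strand. Higher at 18 h were BCL9 (chr1:147541251-147541550, plus strand) and CIART (chr1:150282304-150282603, plus strand).
FAM186A: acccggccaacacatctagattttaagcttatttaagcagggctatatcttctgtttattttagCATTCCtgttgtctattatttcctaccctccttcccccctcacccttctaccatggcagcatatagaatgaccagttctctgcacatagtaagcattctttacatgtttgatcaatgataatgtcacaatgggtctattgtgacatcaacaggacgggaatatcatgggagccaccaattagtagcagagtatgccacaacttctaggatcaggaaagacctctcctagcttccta
DDAH1: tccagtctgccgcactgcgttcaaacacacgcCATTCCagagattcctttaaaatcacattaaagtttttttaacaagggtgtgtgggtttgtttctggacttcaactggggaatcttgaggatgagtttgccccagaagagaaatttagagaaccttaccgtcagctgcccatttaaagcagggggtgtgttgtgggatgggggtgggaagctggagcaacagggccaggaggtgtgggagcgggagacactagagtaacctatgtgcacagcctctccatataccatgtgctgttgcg
ANKRD1: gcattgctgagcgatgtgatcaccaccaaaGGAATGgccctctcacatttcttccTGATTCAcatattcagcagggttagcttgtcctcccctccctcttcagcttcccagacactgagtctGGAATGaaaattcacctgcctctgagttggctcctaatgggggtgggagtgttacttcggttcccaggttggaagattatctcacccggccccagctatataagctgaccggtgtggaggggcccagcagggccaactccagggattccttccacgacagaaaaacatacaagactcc
CPA4: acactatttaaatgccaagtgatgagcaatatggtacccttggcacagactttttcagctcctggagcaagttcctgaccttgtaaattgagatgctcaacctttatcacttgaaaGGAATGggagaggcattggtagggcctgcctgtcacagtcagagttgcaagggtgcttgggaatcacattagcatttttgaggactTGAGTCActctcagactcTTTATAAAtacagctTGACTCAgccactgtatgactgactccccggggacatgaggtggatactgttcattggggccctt
BCL9: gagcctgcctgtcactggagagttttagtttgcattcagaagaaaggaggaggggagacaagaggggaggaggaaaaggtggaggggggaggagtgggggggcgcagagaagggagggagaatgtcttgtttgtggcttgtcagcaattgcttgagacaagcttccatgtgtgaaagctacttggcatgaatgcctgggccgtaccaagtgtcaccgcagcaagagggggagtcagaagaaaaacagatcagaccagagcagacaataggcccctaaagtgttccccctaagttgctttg
CIART: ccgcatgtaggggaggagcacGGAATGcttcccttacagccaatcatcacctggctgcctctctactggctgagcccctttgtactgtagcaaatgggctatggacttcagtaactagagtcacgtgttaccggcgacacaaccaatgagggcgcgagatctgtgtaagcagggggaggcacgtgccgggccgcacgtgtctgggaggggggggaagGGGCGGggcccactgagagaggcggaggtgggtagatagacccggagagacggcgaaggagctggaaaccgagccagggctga
Of the 6681 genes with a promoter under a tested region, 7 had that region lower and 7 higher at 18 h. The motifs were chosen after values were seen, so their counts describe these promoters and are no test of enrichment. A TEAD motif was found in 6 of the 7 lower promoters and 2 of the 7 higher ones, against 9.95% of the 6681. An AP-1 motif was found in 2 of the 7 lower promoters (ANKRD1 and CPA4) and 0 of the 7 higher ones, against 5.01%. A GC box was found in 3 of the lower and 5 of the higher promoters, against 76.5%. ANKRD1 carried 1 AP-1 and 2 TEAD motifs, and FAM186A and DDAH1 carried 1 TEAD motif each. Most of these 14 calls lay near the threshold. In an alternative added after the data were seen, dropping the filter on low signal left 3 of the lower promoters (FAM186A, DDAH1 and ANKRD1), with a TEAD motif in 3 and an AP-1 motif in 1, and 2 of the higher ones (KCND1 and BCL9), with neither. An adjusted p under 0.01 left the same 3 lower promoters and KCND1 alone among the higher. These matches describe letters in the sequence and not bound factors. The median A+T content was 47.3% in the lower and 37.3% in the higher promoters, against 33.3% over the 6681. The ranges overlapped, 25% to 58% in the 7 lower and 33.7% to 53.3% in the 7 higher promoters. This contrast was not tested.

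Far more regions were called lower than higher in signal at 18 h against 2 h. By the DESeq2 test of the authors' deposited table, at an adjusted p under 0.05, 3220 regions were lower at 18 h (2.98% of those tested) and 538 were higher (0.498%), so that 85.7% of the calls were lower. The lower regions were named for 2155 genes and the higher ones for 487, and 149 gene names had both. Their median log2 fold changes were -0.75 (quartiles -0.99 and -0.57) and 0.63, with medians of 0.01 for the fold change and 0.24 for its SE over all tested regions. A change of at least 1.5-fold was seen at 2350 lower and 304 higher regions. Positive and negative signs were nearly balanced among all tested regions, 56163 against 51971, and 8848 lower and 3722 higher regions had an unadjusted p under 0.05. The called regions on the lower side therefore formed a tail of a distribution centred near 0, as the plot of fold change against mean signal shows.

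**Figure D1:**
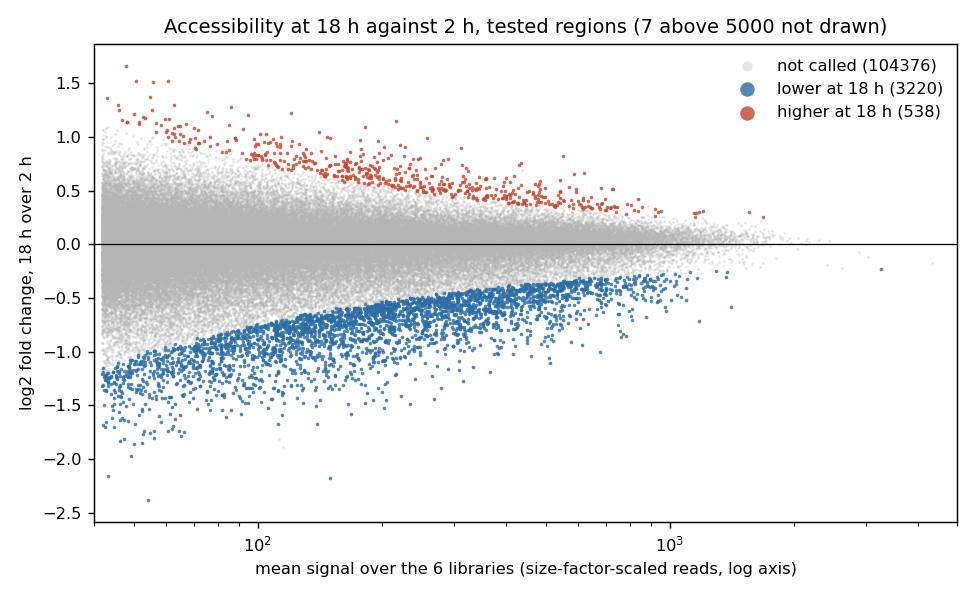
Log2 fold change of 18 h over 2 h (vertical axis) against the mean signal over the 6 libraries (horizontal log axis, reads scaled by the authors' size factors) for the tested regions. Each point is 1 region; the 3220 lower regions (blue) extend further from 0 and are more numerous than the 538 higher ones (red), and 7 regions with a mean signal above 5000 are not drawn.

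Set beside the comparisons with mock, the median over the lower regions was 0.45 at 2 h (quartiles 0.28 and 0.67) and of -0.28 at 18 h (quartiles -0.41 and -0.17). The higher regions had medians of -0.45 at 2 h (quartiles -0.62 and -0.32) and 0.16 at 18 h (quartiles 0.05 and 0.29). The regions that were not called stood at -0.05 and -0.04. By these medians the typical lower region was above mock at 2 h and below it at 18 h, and the typical higher region the reverse. A region called between 18 h and 2 h was often not called against mock. By the deposited DESeq2 tests, most of the regions named in this report were not called at 18 h over mock. Among the named higher regions none was called there. The medians at 18 h therefore do not show that a given region differed from mock. The 3 comparisons share libraries and come from 1 fit, and the 18 h over 2 h value equals the difference of the other 2, so these levels describe the called regions and are not separate evidence. The plot of the most changed regions shows the 3 values of each. Among the lowest, the position relative to mock differed: a region of UBE2E2, which encodes a ubiquitin-conjugating enzyme, had 0.66 at 2 h and -1.02 at 18 h in the authors' deposited table, whereas one of LMO7DN (C13orf45 in that table) had 1.35 and -0.13. The first stood further from mock at 18 h and the second further at 2 h. By the deposited DESeq2 tests against mock, the UBE2E2 region was called at 18 h (adjusted p of 0.0331) and not at 2 h (0.110). The LMO7DN region was called at 2 h (adjusted p of 2.04e-05) and not at 18 h (0.980).

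**Figure D2:**
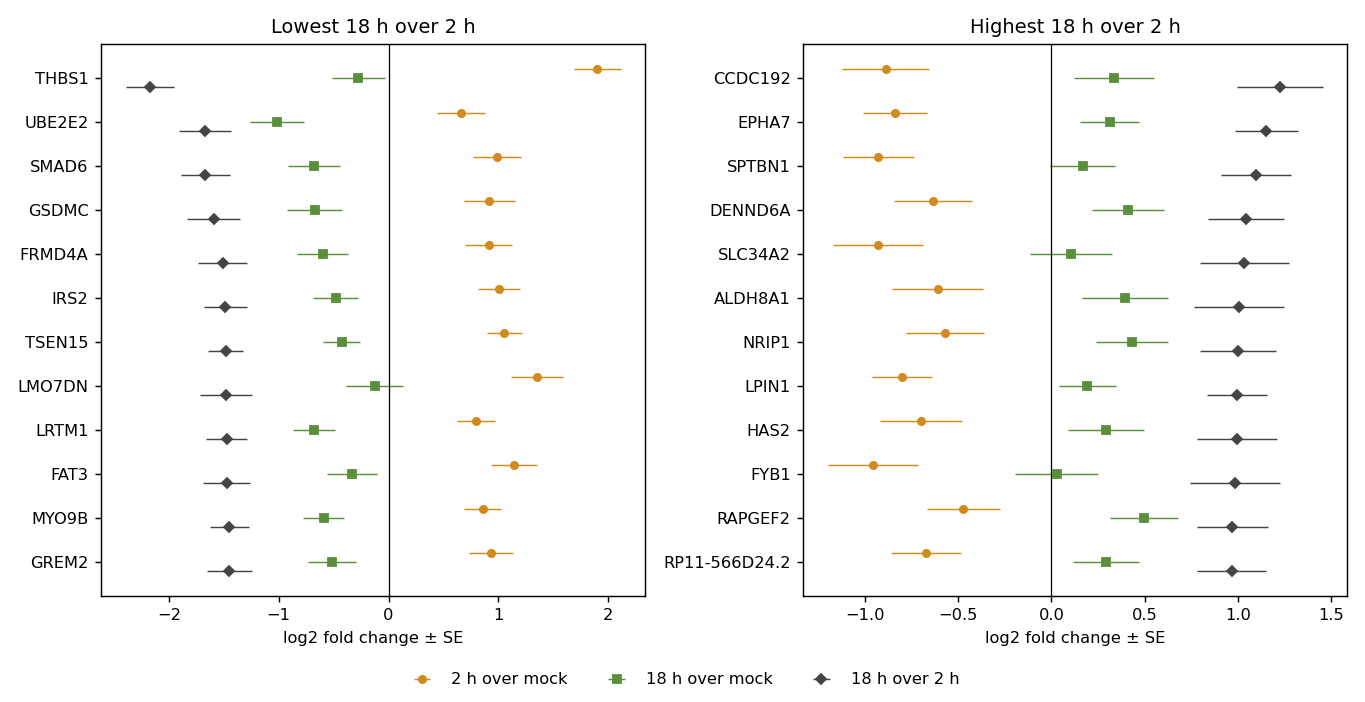
Log2 fold changes (horizontal axis, ± SE) in the 3 deposited comparisons for the 12 regions lowest and the 12 highest at 18 h over 2 h among those with at least the median mean signal, 1 region per gene (vertical axis). In the left panel all 2 h over mock values (circles) are above 0 and all 18 h over mock values (squares) below it; in the right panel the 2 h values are below 0 and the 18 h values above it.

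Most lower regions were spread over many gene names, while a few names held many of them. At least 2 lower regions were found for 600 gene names, at least 5 for 36 and at least 10 for 6, while at least 3 higher regions were found for 5 gene names. The 12 genes with the most lower regions held 135 of them (4.19% of all lower regions): THBS1, SLC7A5, IRS2, PLEC, CRIM1, CCND1, TGFB2, MYC, ACTBL2, SHROOM3, IGFBP4 and COL5A1. Each region carries the name of a nearby gene start, which does not show that it regulates that gene, and regions of 1 gene are not replicates. Neighbouring tested regions lower at 18 h, with centres at most 20 kb apart and no uncalled region between them, formed 226 runs that held 512 regions (15.9% of the lower ones). Among the higher regions there were 16 such runs with 32 regions (5.95%). Of the lower runs 30 had at least 3 regions and the longest had 13, while no higher run had more than 2.

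THBS1, the gene of thrombospondin 1, a secreted protein of the extracellular matrix, held the longest run. The 13 lower regions of the run covered 14.4 kb (chromosome 15, 39585305 to 39599713) with a median log2 fold change of -1.27. The region over the THBS1 start, with a mean signal of 903, had -0.15 ± 0.09 and an adjusted p of 0.594 in the authors' deposited table. In all, 20 of 50 tested THBS1 regions were lower and 0 higher, with 7 of the lower ones upstream, as far as 408 kb from the start. Near the end of the gene, the authors' deposited table gave -1.53 ± 0.19 at 17.6 kb (adjusted p of 3.44e-12) and -1.58 ± 0.21 at 18.1 kb (adjusted p of 1.94e-10). The 20 lower regions had medians of 1.31 at 2 h over mock and -0.04 at 18 h over mock. The value near mock pools unlike regions. The 13 regions of the run had medians of 1.43 at 2 h and 0.16 at 18 h over mock. Each of the 7 upstream lower regions was below mock at 18 h, from -0.41 to -0.12.

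SLC7A5 encodes the light chain of a transporter of large neutral amino acids. It had lower regions in the later part of its body and beyond its end, and a higher region near its start. Of 32 tested SLC7A5 regions 20 were lower (median -1.07) and 1 was higher, and 15 of the lower ones touched the gene span (chromosome 16, 87830023 to 87869507). They formed runs of 7, 6 and 5 regions with medians of -1.17, -1.07 and -1.02, the last equal in number to a PLEC run. The region over the start had -0.30 ± 0.13 (adjusted p of 0.303) in the authors' deposited table and was not called. At 803 bases from it, the authors' deposited table gave 0.61 ± 0.13 (adjusted p of 0.000544), the only SLC7A5 region that was higher. On the other side of the start, at 1.04 kb, a region of mean signal 678 had -1.004 ± 0.11 (adjusted p of 7.92e-17) in the authors' deposited table. Over mock, the 20 lower SLC7A5 regions had medians of 1.17 at 2 h and 0.03 at 18 h.

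PLEC, which encodes the cytoskeletal linker plectin, changed at its far end alone among the tested regions. All 15 lower regions of 23 tested lay 45.6 to 61.8 kb from the start of a gene of 61.6 kb, with a median of -1.18, and none of the other 8 was called. Of its runs, the one with 7 regions had a median of -1.18 and another with 5 regions one of -1.43. The lower PLEC regions had low mean signals, 46.2 to 133. The strongest PLEC regions, of signal 1208 and 1006, had 0.02 and -0.08 and were not called. Here the median at 18 h was below mock: the lower PLEC regions had medians of 0.71 at 2 h and -0.56 at 18 h over mock. The PLEC region of smallest p had -0.54 ± 0.21 at 18 h over mock. It was not called there (adjusted p of 0.395 by the deposited DESeq2 test). IGFBP4, which encodes a secreted protein that binds insulin-like growth factors, was also lower toward and past its end: 7 of 13 tested regions were lower, 5 of them downstream of the gene, with a median of -1.19 and medians of 0.60 and -0.56 over mock at 2 h and 18 h.

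CCND1, the cyclin D1 gene that drives entry into the cell cycle, had 10 of 22 tested regions lower (median -0.90) and 0 higher. A run of 6 covered the second part of the gene and its end (chromosome 11, 69647093 to 69656104; median -1.03), and 4 lower regions lay upstream, as far as 144 kb away. In the authors' deposited table, the CCND1 region of smallest p, 14.4 kb from the start, had -1.06 ± 0.17 (adjusted p of 2.42e-07). MYC, which encodes a transcription factor of growth, had 8 of 67 tested regions lower, all of them downstream, 74.9 to 579 kb from its start. Its region of smallest p, with a mean signal of 749, had -0.75 ± 0.10 (adjusted p of 8.54e-11) in the authors' deposited table. For TGFB2, a TGF-beta ligand gene, 9 of 40 were lower, 8 of them downstream, and the one inside the gene fell 2.29-fold (-1.19 ± 0.13; adjusted p of 1.51e-15) in the authors' deposited table. The IRS2 regions, named for an adaptor of the insulin receptor, were widely spread: 15 of 64 were lower, 11 of them downstream, as far as 543 kb from the start.

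**Figure D3:**
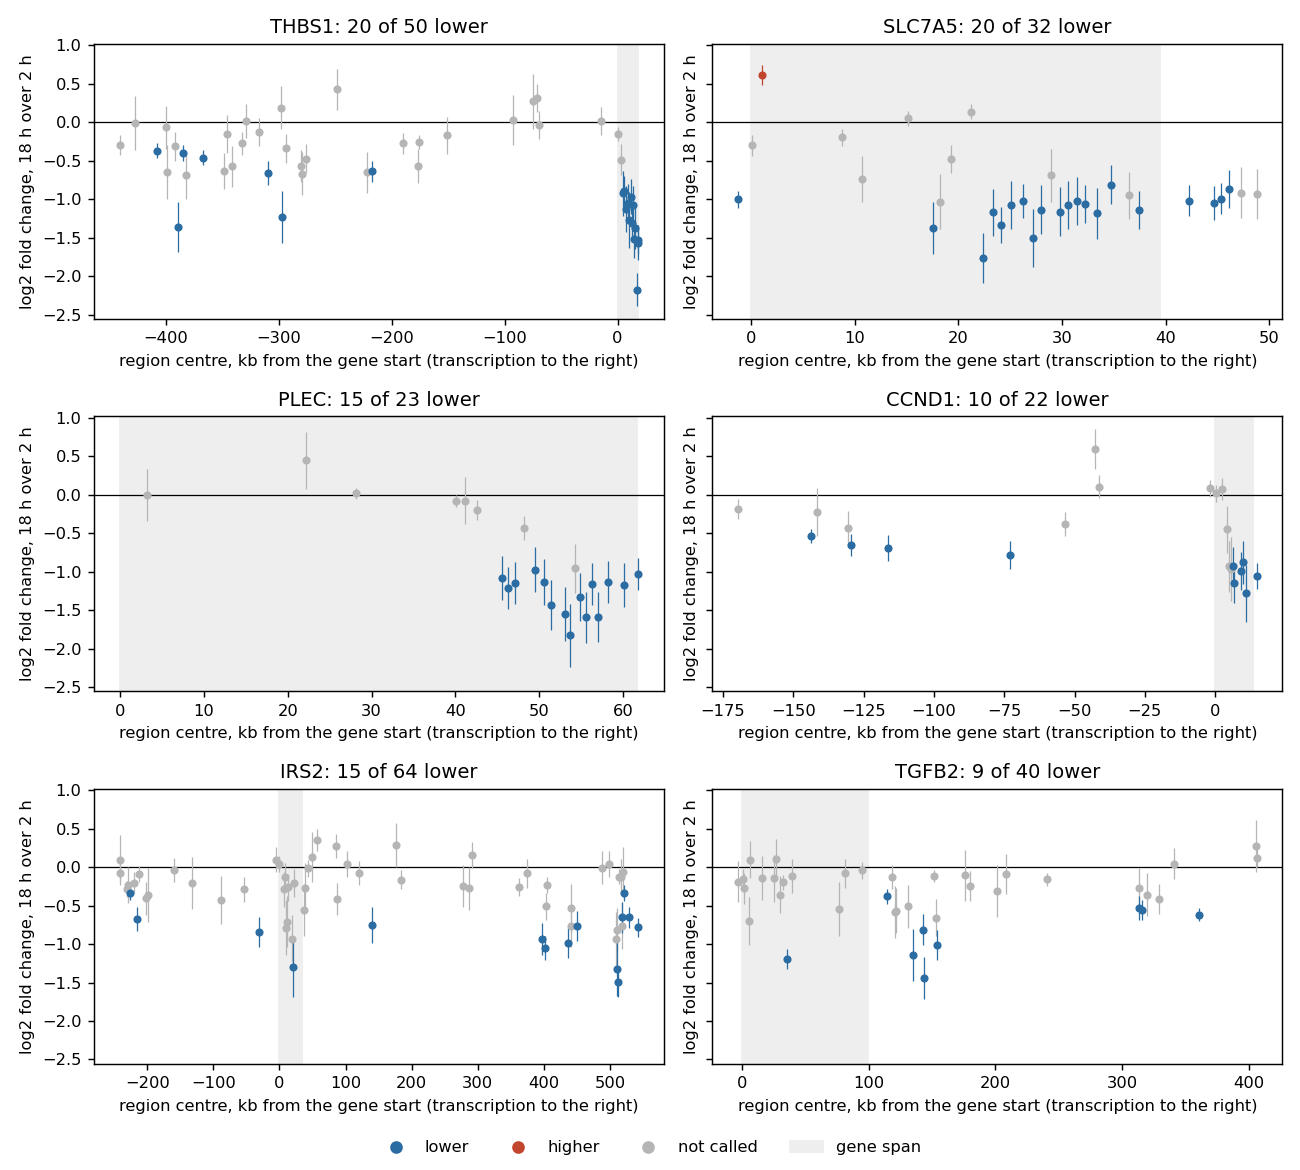
Log2 fold change of 18 h over 2 h (vertical axis, ± SE) of every tested region named for THBS1, SLC7A5, PLEC, CCND1, IRS2 and TGFB2, by distance of its centre from the gene start in kb (horizontal axis, direction of transcription to the right; grey band: gene span). Lower regions are blue, higher red and uncalled grey. Inside SLC7A5, PLEC and CCND1 the lower regions crowd the later part of the gene, and inside THBS1 they run from 4.5 kb to its end. The region over the start of THBS1, SLC7A5 and CCND1 is grey.

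The remaining genes of the 12 had lower regions in other arrangements. For CRIM1, whose product binds bone morphogenetic proteins, 10 of 63 regions were lower and 1 higher, and the region of smallest p had -1.34 ± 0.19 in the authors' deposited table, 131 kb from the start. Lower ACTBL2 regions, 7 of 41, all lay upstream of this actin-like gene, 216 to 407 kb away. SHROOM3, which encodes an actin-binding regulator of cell shape, had 7 of 32 lower, all touching the gene, and COL5A1, a fibrillar collagen gene, 7 of 31. Their regions of smallest p had -1.47 ± 0.24 (SHROOM3) and -0.56 ± 0.10 (COL5A1, mean signal 698) in the authors' deposited table.

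Higher regions were scattered and smaller in number at each gene. The names of 5 genes were attached to 3 higher regions each: TBL1XR1 (41 tested, 2 lower), DCAF4L2 (24 tested), TSPYL5 (21 tested, 1 lower), SOX6 (22 tested) and ANKH (31 tested). TBL1XR1 encodes a subunit of the NCoR corepressor complex, SOX6 a transcription factor and ANKH a membrane protein of pyrophosphate transport. KMT2C, EIF1 and SORCS1 had 2 higher regions each, and the smallest p of all higher regions named here belonged to KMT2C, a histone methyltransferase gene, at 0.82 ± 0.11 and 84.7 kb (adjusted p of 3.58e-10) in the authors' deposited table. With regions weaker than the median tested region set aside, the authors' deposited table gave the largest rise at CCDC192, 1.22 ± 0.23 (adjusted p of 2.34e-05), 219.6 kb from its start. EPHA7, an ephrin receptor gene, followed with 1.15 ± 0.17 (adjusted p of 1.4e-08) in the authors' deposited table, 1188 kb from its start, as did SPTBN1, a spectrin gene, with 1.09 ± 0.19 (adjusted p of 2.48e-06). For LPIN1, a phosphatidate phosphatase gene, and HAS2, a hyaluronan synthase gene, the authors' deposited table gave 0.99 ± 0.16 and 0.99 ± 0.21. The largest rises were thus smaller than the largest falls, and 49 higher regions against 766 lower ones reached 2-fold.

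Gene starts took little part in the difference. Of the 8968 tested regions that cover a start, 11 were lower (0.123%) and 12 higher (0.134%), and of the 4526 others under 1 kb from one, 24 (0.530%) and 7 (0.155%). The share that was lower was 2.28% at 1 to 10 kb, 3.40% at 10 to 100 kb, 3.96% at 100 to 500 kb and 3.81% beyond. The share that was higher went from 0.287% at 1 to 10 kb to 0.782% beyond 500 kb. More signal makes a change easier to call, and starts have more: the median signal was 412 over a start and 96.5 at 10 to 100 kb. Among the 10814 tested regions with the strongest signal (10.0% of all), 8 of 5019 within 1 kb of a start were lower (0.159%) and 10 higher, while 456 of 5795 farther away were lower (7.87%) and 88 higher (1.52%). The median SE of both sets there was nearly the same, 0.101 and 0.104. Their median log2 fold changes were 0.06 and -0.01, so the median start was slightly higher at 18 h and the median of the others slightly lower.

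**Figure D4:**
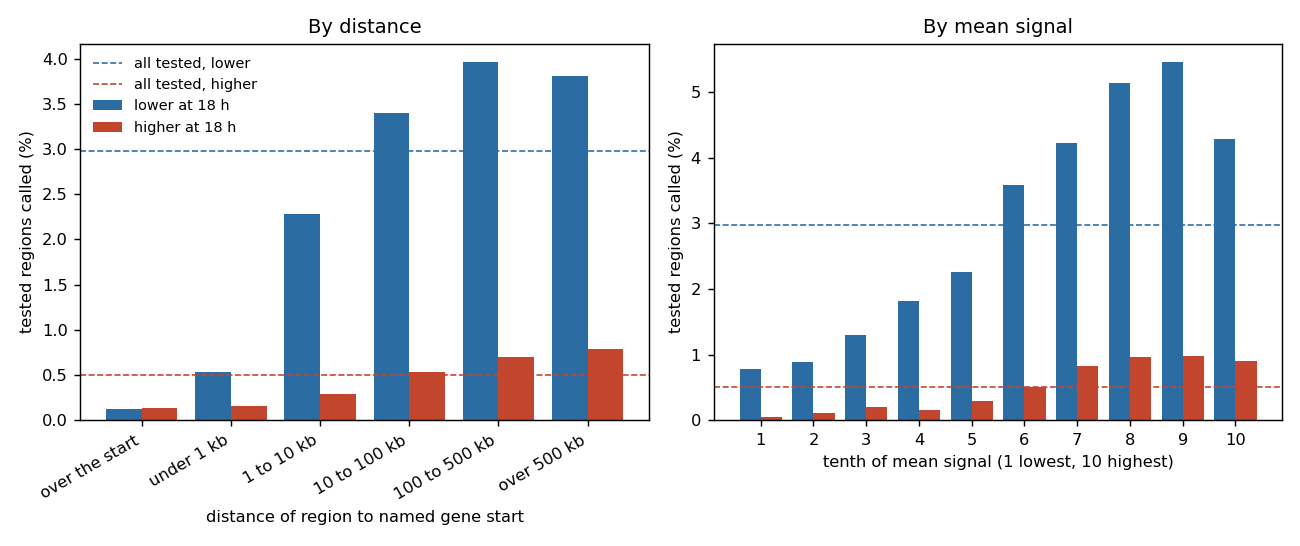
Share of tested regions that were lower (blue bars) or higher (red bars) at 18 h than at 2 h, in percent (vertical axes), by distance to the named gene start (left) and by mean signal in 10 equal classes (right); dashed lines give the shares over all tested regions, 2.98% and 0.498%. The lower share is 0.123% over gene starts and at least 2.28% in each class from 1 kb outward, and by signal it is highest, at 5.47%, in class 9.

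Within 1 kb of a start, 35 regions were lower and 19 higher among 13494 tested. The smallest p belonged to SYNC, which encodes an intermediate filament protein of muscle, with -0.70 ± 0.10 (adjusted p of 6.58e-09) in the authors' deposited table. GJA5, a gap junction gene, and ANXA3, which encodes a calcium-dependent membrane-binding protein, fell 2.4-fold and 2.24-fold in the authors' deposited table. At the printed promoters, the authors' deposited table gave -1.01 ± 0.17 for FAM186A (adjusted p of 1.01e-06), -1.08 ± 0.18 for DDAH1, which breaks down asymmetric dimethylarginine (adjusted p of 1.13e-06), and -0.86 ± 0.15 for ANKRD1, a classical target of YAP and TEAD (adjusted p of 4.6e-06). CPA4, a carboxypeptidase gene, had -0.31 ± 0.09 (adjusted p of 0.0362) in the authors' deposited table and lost its call without the filter on low signal. PDCD1LG2, which encodes a checkpoint ligand, had -0.84 ± 0.15, FSCN1, the actin-bundling fascin gene, -0.43 ± 0.09 and ROCK2, a kinase of actomyosin contraction, -0.41 ± 0.09 in the authors' deposited table. PCED1B, KRTAP4-9 and CTD-2192J16.20 completed the 12 lower regions of smallest p, with -0.61 ± 0.12, -1.17 ± 0.24 and -1.23 ± 0.26 in the authors' deposited table.

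The higher starts had smaller fold changes: over a start, the median was 0.43 for higher and -0.56 for lower regions. FXYD3, which encodes a regulator of the sodium pump, had 0.52 ± 0.11 at 508 bases from its start (adjusted p of 0.000193) in the authors' deposited table, and SHROOM4, an actin-binding gene, 0.55 ± 0.12 (adjusted p of 0.000345). CD74, the invariant chain of antigen presentation, had the strongest signal of the set, 1181, and 0.30 ± 0.08 (adjusted p of 0.00702) in the authors' deposited table. In the authors' deposited table, KCND1, a potassium channel gene, had 0.72 ± 0.18, the developmental regulator HOXA5 0.58 ± 0.16 and FCRLA 0.41 ± 0.10. The printed promoters of BCL9, a coactivator of beta-catenin, and CIART, a repressor of the circadian clock, had 0.46 ± 0.13 (adjusted p of 0.0171) and 0.45 ± 0.13 (adjusted p of 0.0258) in the authors' deposited table. The zinc finger genes ZNF253 and ZNF506 and the beta-actin gene ACTB had 0.34 ± 0.10, 0.40 ± 0.12 and 0.38 ± 0.11 in the authors' deposited table. Many of these 12 calls were near the threshold: an adjusted p under 0.01 left 6 of them (without ACTB, BCL9, CIART, HOXA5, ZNF253 and ZNF506), and a test against a fold of 1.2 left 0. CIART also lost its call when the filter on low signal was dropped, and ZNF506 when fold changes were centred within classes of signal. In the 2 h over mock column of the authors' deposited table these 12 regions stood between -0.76 (SLC7A5) and -0.20 (CD74), and at 18 h over mock between -0.15 and 0.18.

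The 31 gene lists were read by their counts, each beside the 2.98% of all tested regions that were lower and the 0.498% that were higher. In 30 of them at least 1 region was lower, in 21 the lower share was above that of all regions, and in 10 it was more than 2 times as large; 19 held a higher region. The lists and their members were chosen with earlier results of these data known. The lists overlap, a few genes carry much of several of them, and the counts carry no test. At the starts of list genes, 4 of 579 entries were lower (0.691%) and 2 higher (0.345%), beside 29 (0.241%) and 17 (0.141%) of 12023 starts of all genes, so that most list counts rest on distal regions. Entries repeat genes that stand in more than 1 list. The highest share was that of the list named YAP and TEAD targets, which holds genes switched on by these factors and also Hippo pathway genes themselves, YAP1 (0 of 14 lower), WWTR1 (1 of 67) and TEAD1 (0 of 39) among them: 71 of 454 tested regions (15.6%) were lower, from 16 of 20 genes, with a median log2 fold change of -0.17 against 0.01 for all regions. THBS1 gave 20 of them, and without it 51 of 404 (12.6%) were lower. Of the others 6 of 25 AMOTL2 regions were lower, a Hippo scaffold gene whose region of smallest p had -0.94 ± 0.11 (adjusted p of 2.1e-13) in the authors' deposited table. Lower regions were also counted for AXL (5 of 13), LIMA1 (4 of 20), F3 (3 of 14), CCN1 (3 of 10) and CCN2 (1 of 16).

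Growth factor lists also held many lower regions. Of the insulin and IGF signalling list 42 of 394 tested regions (10.7%) were lower, from 10 of 24 genes, and without IRS2 27 of 330 (8.18%). It held ligand-binding proteins (IGFBP4, 7 of 13; IGFBP3, 3 of 38), the receptor gene IGF1R (3 of 46), and the adaptors IRS2 (15 of 64) and IRS1 (7 of 30). An IGFBP3 region 224 kb from its start had -1.24 ± 0.20 (adjusted p of 6.83e-07) in the authors' deposited table. In the TGF-beta and BMP list 37 of 437 tested regions (8.47%) were lower, and without TGFB2 28 of 397 (7.05%). Its lower regions included the ligand gene BMP4 (2 of 14), the signal carrier SMAD3 (6 of 42) and the inhibitors SMAD6 (4 of 35) and SMAD7 (3 of 23), so both activators and inhibitors were among them. The SMAD7 region of smallest p had -0.68 ± 0.11 (adjusted p of 4.03e-07) in the authors' deposited table; another member, BMP2, had 2 higher regions and 1 lower. Receptor tyrosine kinases and ligands had 17 of 383 tested regions (4.44%) lower and 0 higher, with ROR1 at -1.08 ± 0.14, the growth factor gene FGF2 at -0.86 ± 0.12 and the AXL ligand gene GAS6 at -1.30 ± 0.18 in the authors' deposited table. In the MAPK feedback and output list 31 of 520 tested regions (5.96%) were lower, and 21 of 498 (4.22%) without CCND1; DUSP5, a phosphatase that acts on ERK, had 5 of 20.

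Lists of matrix, adhesion and actin genes were also above the share of all regions. Collagens and matrix proteins had 48 of 514 tested regions (9.34%) lower, from 17 of 35 genes, and without THBS1 28 of 464 (6.03%). COL4A2, a basement membrane collagen gene, had 5 of 22, its strongest at -1.45 ± 0.18 (adjusted p of 6.8e-12), and HSPG2, the perlecan gene, -1.01 ± 0.14 (adjusted p of 1.94e-10) in the authors' deposited table. Focal adhesion and actin genes had 36 of 535 tested regions (6.73%) lower, from 16 of 35 genes, and without TPM1 30 of 515 (5.83%). In the authors' deposited table, TLN2, a talin gene that links integrins to actin, had -1.27 ± 0.15, the actomyosin kinase gene CDC42BPA -1.30 ± 0.17 and ACTN4, an actinin gene, -0.98 ± 0.16. Integrins and laminins had 16 of 357 tested regions (4.48%) lower, and without ITGA3 12 of 339 (3.54%). The receptor gene ITGB5 had -1.20 ± 0.19 and the laminin gene LAMC1 -0.98 ± 0.15 in the authors' deposited table. The list also held 2 higher regions, of ITGA9 and of LAMC1 itself. Axon guidance genes had 35 of 653 tested regions (5.36%) lower and 5 higher, from SEMA3A (-1.32 ± 0.21) and the receptor gene PLXND1 (-0.65 ± 0.10) to EPHA7 on the higher side in the authors' deposited table. Cadherins and protocadherins, at 22 of 642 tested regions (3.43%), were near the share of all regions.

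Melanoma state lists both held lower regions. The undifferentiated or invasive list had 48 of 585 tested regions (8.21%) lower and 4 higher, and without THBS1 28 of 535 (5.23%); a region 2.83 kb from the start of the receptor kinase gene AXL had -0.84 ± 0.13 (adjusted p of 8.68e-08) in the authors' deposited table. The melanocyte lineage and pigment list had 10 of 176 tested regions (5.68%) lower and 0 higher, and without KIT 7 of 162 (4.32%) were lower. In the authors' deposited table TRPM1, a melanocyte channel gene, had -0.99 ± 0.16, the factor TFAP2A -0.79 ± 0.16 and the receptor gene KIT -0.66 ± 0.14. EMT transcription factors had 2 of 155 lower (1.29%), in FOXQ1 and ZEB2.

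Among lists of metabolism and stress, amino acid transport and ATF4 targets had 29 of 295 tested regions (9.83%) lower and 5 higher (1.69%), but 20 of the lower ones were SLC7A5 regions and without that gene 9 of 263 (3.42%) were lower. Higher members included CEBPB, a partner of ATF4, at 0.49 ± 0.11 (adjusted p of 0.000888) in the authors' deposited table. The G1 cell cycle list likewise rested on CCND1: 11 of 152 tested regions (7.24%) were lower with it and 1 of 130 (0.769%) without it. Its higher region was one of CDKN2B, a cyclin kinase inhibitor gene, at 0.61 ± 0.15 (adjusted p of 0.00519) in the authors' deposited table. In the BCL2 family 7 of 109 tested regions (6.42%) were lower, with the survival gene BCL2L1 at -0.89 ± 0.12 (adjusted p of 4.86e-11) and the death genes BOK and PMAIP1 at -1.33 ± 0.21 and -1.06 ± 0.22 in the authors' deposited table. Hypoxia and glycolysis genes had 11 of 250 tested regions (4.4%) lower and 3 higher, and without SLC2A1 7 of 227 (3.08%) were lower. SLC2A1, a glucose transporter gene, had -1.001 ± 0.23 and EPAS1 -0.54 ± 0.11 in the authors' deposited table. NF-kB targets and cytokines had 8 of 153 tested regions (5.23%) lower, and without LIF 5 of 133 (3.76%). LIF had -0.78 ± 0.13, NFKBIZ -1.31 ± 0.22 and CSF2 -0.56 ± 0.10 in the authors' deposited table.

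AP-1 subunits had 6 of 105 tested regions (5.71%) lower and 0 higher, led by ATF3 at -0.46 ± 0.10, JUN at -1.67 ± 0.40 and FOS at -0.67 ± 0.19 in the authors' deposited table. That JUN region, with a mean signal of 50.2, stood at -0.46 over mock at 2 h and -2.14 at 18 h in the authors' deposited table. Immediate early genes had 4 of 208 tested regions (1.92%) lower and 2 higher, with KLF6 at -1.09 ± 0.24, KLF4 at -0.70 ± 0.18 and EGR2 on the higher side at 0.64 ± 0.16 in the authors' deposited table. Nuclear receptor genes had 14 of 440 tested regions (3.18%) lower and 4 higher. In the authors' deposited table PPARG, the regulator of fat cell genes, had 0.74 ± 0.14 and THRB -1.35 ± 0.19. Of 48 THRB regions 5 were lower and 1 higher. WNT pathway genes had 8 of 331 tested regions (2.42%) lower and 3 higher. The receptor genes FZD2 and FZD1 had -0.73 ± 0.11 and 0.85 ± 0.19, and APC, a brake on the pathway, 0.96 ± 0.23 in the authors' deposited table. NOTCH pathway genes had 8 of 284 tested regions (2.82%) lower and 2 higher. The lower shares of the nuclear receptor, WNT and NOTCH lists were near the 2.98% of all tested regions.

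In housekeeping and chromatin lists the lower shares ran from 0 to 3.26%, beside 2.98% of all regions. Replication-dependent histones had 0 of 47 regions called in either direction, and the smallest p was that of H3C1 at 0.33 ± 0.12 (adjusted p of 0.114) in the authors' deposited table. Ribosomal protein genes had 3 of 170 lower and 1 higher, heat shock genes 2 of 116 lower, and interferon and antigen presentation genes 3 of 134 lower and 2 higher (1.49%, beside 0.498% of all regions), both of CD74. Chromatin regulators had 7 of 272 lower and 0 higher, with the acetyltransferase gene CREBBP at -0.77 ± 0.12 and the deacetylase gene HDAC2 at -0.91 ± 0.20 in the authors' deposited table. Cholesterol synthesis genes had 3 of 92 lower and 0 higher. The uptake and cell-surface binding list, which holds heparan sulfate carriers and endocytosis genes, had 12 of 226 tested regions (5.31%) lower and 1 higher. Its members GPC6, GPC1 and SDC2, all proteoglycan genes, had -0.92 ± 0.14, -0.61 ± 0.10 and -1.27 ± 0.22 in the authors' deposited table.

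**Figure D5:**
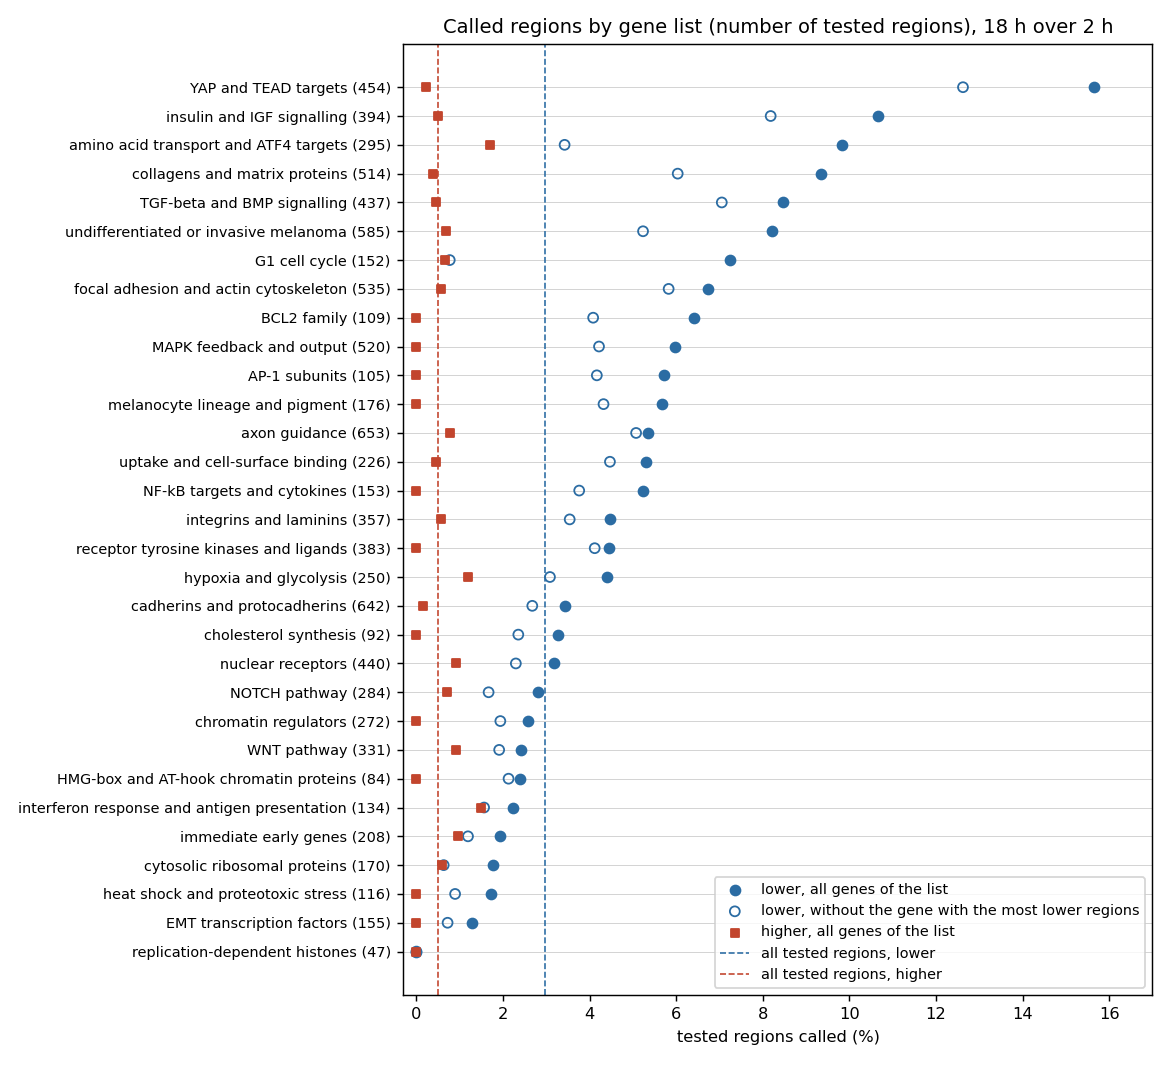
Share of tested regions lower (filled circles; open circles without the list gene with the most lower regions) or higher (squares) at 18 h than at 2 h, in percent (horizontal axis), for the 31 gene lists (vertical axis, number of tested regions in parentheses); dashed lines give 2.98% and 0.498%. YAP and TEAD targets lie furthest to the right at 15.6%, or 12.6% without THBS1, and the G1 list drops from 7.24% to 0.769% without CCND1.

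At the HMGA1 gene itself, 5 regions were tested and 0 were called. The region over its start had 0.27 ± 0.18 (adjusted p of 0.657), and the region of largest signal, 874, 0.04 ± 0.09 (adjusted p of 0.966) in the authors' deposited table. Of the 84 tested regions of HMG-box and AT-hook protein genes 2 were lower (2.38%), one of HMGB2 at -1.45 ± 0.23 and one of HMGA2, the closest relative of HMGA1, at -0.77 ± 0.20 in the authors' deposited table.

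The line was checked against markers by the mean signal at gene starts, whose median over 13748 starts was 335. Of 10 melanocyte markers 5 had a start region: MITF had a mean signal of 694, PAX3 302, EDNRB 262, SOX10 63.8 and TRPM1 15.1 in the authors' deposited table. The pigment genes TYR, TYRP1, DCT, PMEL and MLANA had none, and MITF was the only melanocyte marker with a start above that median. Start regions of 4 endothelial and 4 immune markers were absent, those of keratinocyte markers had signals of 26.9 to 69.4 (3 of 4), and those of fibroblast markers 25.1 to 448 (4 of 4), the highest being PDGFRB, also above the median. All tested regions were also counted for other marker lists, which were larger except for melanocyte. They held 11 keratinocyte, 10 fibroblast, 9 endothelial, 11 immune and 10 melanocyte genes. Their regions were lower in 5 of 48 (keratinocyte), 5 of 81 (fibroblast), 6 of 109 (endothelial), 1 of 36 (immune) and 2 of 78 (melanocyte) cases, and 0 were higher. Beside the 2.98% of all tested regions, these shares were 10.4% for keratinocyte, 6.17% for fibroblast, 5.50% for endothelial, 2.78% for immune and 2.56% for melanocyte markers. The part of other cell types in the results was not tested. Both regions of mitochondrial DNA had lower values at 18 h that were not called: the authors' deposited table gave -0.22 ± 0.09 (adjusted p of 0.230) at MT-CO1 and -0.21 ± 0.09 (adjusted p of 0.298) at MT-CYB. Among chromosomes other than Y (0 of 10) and the mitochondrial one (0 of 2), the lower share ran from 1.46% on chromosome 19 (61 of 4164) to 4.26% on chromosome 13 (122 of 2862, 15 of them IRS2 regions). The part of library quality or of mitochondrial signal in the excess of lower regions was not tested.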

How the data were processed

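The 6 ATAC-seq libraries of A375 cells (2 each of mock, 2 h and 18 h) lay behind 3 tables of pairwise comparisons. Per the submitters' processing notes, reads were demultiplexed with bcl2fastq 2.17, the build was hg38 and the authors used DESeq2. The aligner, peak caller and any Tn5 shift are not given in the sources used here. Per the file headers, each row of the deposited tables holds a region, its mean signal (counts scaled by size factors), the log2 fold change with its SE, the Wald statistic (a score), the p-value and adjusted p, and a gene name with its distance in bases. The deposited columns hold 0 values of single libraries, so depth per library is unknown and the planned test on counts and any refit could not be run. The 18 h over 2 h log2 fold change equals the difference of both deposited mock comparisons to within 1.02e-14, so 1 fit covered the 6 libraries.

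The 6524 repeat rows of 233150 were left out, and a region kept the name of the nearest gene start. Regions were 501 bases long, 60 of them 1002. Whether coordinates count from 0 or 1 was not stated. Calls required an adjusted p under 0.05 in the authors' deposited tables. Of 19059 gene names 18348 matched RefSeq, 936 through older names. Exons, introns and region sequences were not analysed here.

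Named were the 12 genes with the most lower and 8 with the most higher regions; per direction the 12 regions of smallest p within 1 kb of a start and the 12 of largest fold change with at least the median signal (104); up to 3 called genes per list; genes of the 6 longest runs (ties by smallest p); and HMGA1, THBS1 and SLC7A5. LOC, LINC and MIR names were passed over, and some named results are not reported here. Other list genes given by count alone, and TEAD, AP-1, TATA and GC motifs at starts, were chosen after values were seen. The members and lists were chosen with earlier results of these data known. Counts used Python 3.11.15, pandas 2.3.3 and scipy 1.17.1, tested on simulated data. Alternatives changed the centring, the signal filter, the threshold, the null, the distance and the gap.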

Additional observations from a re-analysis of the deposited data

Results flagged for a closer look

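The difference between the effects of 2 h and 18 h of exposure, each against mock, was tested directly by the deposited comparison of 18 h with 2 h (DESeq2). By that test the effect was lower at 18 h than at 2 h at 3220 regions and higher at 538 regions, which flagged both counts as differences between the groups. The median over the lower regions was 0.45 over mock at 2 h and -0.28 at 18 h. Over the higher regions the medians were -0.45 and 0.16. Most of the named regions were not called at 18 h over mock. No cause of the difference between 2 h and 18 h was tested. No group had enough libraries for a search for libraries far from the others.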

How the results depend on the processing

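No paired analysis was possible because the deposited tables hold no values of single libraries; leaving out a library, a replicate block and other count models were for the same reason not run. Of the 3220 lower and 538 higher regions, an adjusted p under 0.01 left 1896 and 224, and a test against a fold of 1.2 in place of no change left 489 and 20; both are stricter by construction. Centring on the median, centring within 10 classes of signal, dropping the signal filter, a signal of at least 100 and counting rows gave 2598 to 3471 lower and 371 to 621 higher regions, with 82.0% to 87.7% of calls lower. Within 1 kb of a start, the 35 lower and 19 higher regions became 11 and 12 over the start itself, 79 and 25 within 2 kb and 217 and 42 within 5 kb; the wider window holds more regions. Counts of runs with a gap of 10 or 50 kb were within 1.5 times those reported. Of 170 named regions, 0 changed their call with centring on the median and 1 (ZNF506) with centring within the classes. Without the signal filter 5 lost it (CIART, CCND2, HSPH1, RPL3 and PTPRC), and against a fold of 1.2 80 did. Leaving out the gene with the most lower regions was an alternative added after the data were seen, and it cannot raise a count. It moved 20 of 36 counts of lower regions, marker lists included, by over 1.5 times. Dropping the filter did so for 13 of 72 list counts in both directions. With 2 libraries per group and depth unknown, the precision is that of the deposited SE.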

Other observations

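Beyond the 6 longest runs, the runs of at least 3 lower regions included those described here, a selection made after their values were seen. Further runs carried the names of IQCJ-SCHIP1, PSG1 and PSG6, UBE2QL1, METTL15, DNAH5, SUSD1 and UGCG, and NDST1 and RPS14. A run of 4 regions over 22.1 kb (chromosome 9, 26243639 to 26265692; median log2 fold change -1.01) was named for TUSC1. NUAK2, which encodes a kinase of the AMPK family and a YAP target, had 3 regions over 7.46 kb (chromosome 1, 205294289 to 205301753; median log2 fold change -0.68). The run of BCL2L1, the survival gene, had 3 regions over 16.2 kb (chromosome 20, 31704440 to 31720591; median log2 fold change -0.89). LIMA1, which encodes an actin-bundling protein, had 3 regions over 15.3 kb (chromosome 12, 50187170 to 50202421; median log2 fold change -0.84), and NEDD9, a scaffold of focal adhesions, 3 regions over 3.9 kb (chromosome 6, 11425366 to 11429268; median log2 fold change -0.79). AXL had 3 regions over 2.68 kb (chromosome 19, 41235950 to 41238630; median log2 fold change -1.13) and IRS1, the relative of IRS2, 3 regions over 8.79 kb (chromosome 2, 226475589 to 226484374; median log2 fold change -1.02). WWC1, the Hippo regulator KIBRA, had 3 regions over 10.4 kb (chromosome 5, 168314814 to 168325252; median log2 fold change -0.79). All 30 runs of at least 3 regions were lower at 18 h.

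Among the 6681 promoters under a tested region, the median log2 fold change in 5 equal classes of A+T content was 0.04, 0.05, 0.06, 0.07 and 0.09 from the lowest to the highest. In the same order the classes held 1, 1, 0, 1 and 4 lower and 0, 0, 3, 2 and 2 higher promoters.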
